A study of Mus musculus with 16 samples.

Results

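MicroRNAs known as markers of striated muscle or liver were looked for in small RNA libraries of mature mouse sperm. They were 6 arms, miR-1a-3p, miR-133a-3p and miR-206-3p for muscle and miR-122-5p, miR-192-5p and miR-194-5p for liver. They were chosen by name for their tissue, with their levels in these libraries already known, and a read was given to an arm when it was 20 to 26 nt long and began with the first 20 bases of the mature arm. Of the 6, miR-206-3p, miR-192-5p and miR-194-5p were matched in the RefSeq table of 1679 mature arms (GRCm38.p6) and are described here, and all 3 were detected. In the same way 545 mouse arms had a read in at least 1 library.

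The study had 8 sperm libraries, 2 in each of 4 groups: Dnmt2+/+ on a normal diet (ND, Diet 1415), Dnmt2+/+ on a high-fat diet (HFD, D12492), Dnmt2-/- on ND and Dnmt2-/- on HFD. Dnmt2 (Trdmt1) is a tRNA cytosine methyltransferase. All males had the C57BL/6NCrl background; purchased animals were 6 weeks old, and the knockout allele, Dnmt2tm1Bes, had been backcrossed to that strain. Dnmt2 messenger RNA is not measured by these libraries, so the genotype labels could not be checked. Sperm came from the cauda epididymis, were collected in saline at 37 °C and were pelleted at 600 g, and no other purification step is given in the labels. The labels do not say whether the 2 libraries of a group came from separate animals, so p-values measure the spread between these libraries, which may be technical. Another 8 libraries of the series, from 3T3 cells, were not used here.

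MicroRNAs are short RNAs cut from hairpin precursors, and bases 2 to 8, the seed, guide them to target messenger RNAs. miR-206 is a skeletal muscle microRNA, one of the myomiRs, that takes part in myoblast differentiation. miR-192 and miR-194 are made from a shared transcript and are abundant in liver, kidney and intestine; a second pair of the same family, miR-215 and miR-194, comes from another chromosome. In bulk RNA of this kind, fewer cells of a type and less RNA per cell cannot be told apart.

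The mature arms of the detected members, with miR-215-5p as the seed relative of miR-192-5p, are printed first because the results turn on which reads carry them; capitals mark the seed.
miR-206-3p: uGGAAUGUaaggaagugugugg
miR-192-5p: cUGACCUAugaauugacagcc
miR-215-5p: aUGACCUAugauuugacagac
miR-194-5p: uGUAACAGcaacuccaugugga
miR-192-5p and miR-215-5p share the seed UGACCUA and differ by C1A, A12U and C20A, with positions counted from 1 at the 5′ end of the arm and the base of miR-192-5p given first. Because of these differences the first 20 bases keep both arms apart. In the RefSeq table the seed of miR-206-3p was shared by miR-6349 and miR-6382, which had 0 reads in every library, and the seed of miR-194-5p by no other arm. The members not matched in that table, miR-1a-3p, miR-133a-3p and miR-122-5p, could not be compared, so arms outside it may share these seeds.

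The hairpins are shown with the mature arm in capitals, since several results below depend on the bases that follow it.
Mir206: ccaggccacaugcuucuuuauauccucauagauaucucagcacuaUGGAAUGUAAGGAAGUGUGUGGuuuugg
Mir192: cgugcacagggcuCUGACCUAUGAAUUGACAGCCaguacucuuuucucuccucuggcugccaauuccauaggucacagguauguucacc
Mir194-1: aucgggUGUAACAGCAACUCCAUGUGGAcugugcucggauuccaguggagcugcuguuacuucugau
Mir194-2: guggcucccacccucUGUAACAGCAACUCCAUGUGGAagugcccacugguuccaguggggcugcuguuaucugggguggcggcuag
In GRCm38.p6, Mir206 lies on the plus strand at chr1:20679010-20679082, inside the long non-coding RNA gene Lincmd1, with Mir133b 3686 bases further on in the same gene. Mir192 lies at chr19:6264844-6264932, and Mir194-2 at chr19:6264643-6264728, 115 bases before it; no other RefSeq gene overlaps either of them. Mir194-1 lies at chr1:185313319-185313385 within the span of Iars2, 195 bases from Mir215. The mature arm of miR-194 is the same from both hairpins, and the bases after it differ.

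Libraries held 10165031 to 19030258 reads, and all microRNA arms together made up 1.078% to 7.013% of them. Levels are given as counts per 1000000 reads of the library (CPM), with exact Clopper-Pearson 95% intervals that cover counting error only. The 8 libraries fell into 3 sets by substitutions that recurred at a fixed base of abundant reads. Dnmt2+/+ ND 1 and both Dnmt2-/- ND libraries had G-to-T at base 29 in 377.5 to 407.1 of 10000 reads, against at most 4.162 elsewhere, and are called the base-29 libraries. Both Dnmt2+/+ HFD libraries and Dnmt2-/- HFD 1 had C-to-G at base 26 in 9.664 to 10.33 of 10000 reads, against at most 1.536 elsewhere, and are called the base-26 libraries. Dnmt2+/+ ND 2 and Dnmt2-/- HFD 2 had neither. All base-29 libraries are ND and all base-26 libraries are HFD, so diet and set cannot be told apart among those 6. The remaining pair holds both diets but in different genotypes.

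miR-206-3p was abundant in 3 libraries and close to absent in the other 5. The Dnmt2+/+ HFD libraries had 666 and 664 reads (64.68 and 65.32 CPM) and Dnmt2-/- HFD 1 had 776 (75.3 CPM). The Dnmt2+/+ ND libraries had 3 and 2 reads (0.1576 and 0.1465 CPM), the Dnmt2-/- ND libraries 1 and 2 (0.07586 and 0.1521 CPM), and Dnmt2-/- HFD 2 had 9 (0.6764 CPM, interval 0.3093 to 1.284). The 3 high libraries are exactly the base-26 libraries, and the remaining HFD library lies far nearer to the ND libraries than to its own replicate. Pooled, the base-26 libraries held 518 times the level of the base-29 libraries (interval 237 to 1410, on 2106 against 6 reads) and 168 times that of the 2 libraries with neither substitution (interval 93.6 to 337, on 2106 against 11 reads).

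The 2 replicates of Dnmt2-/- HFD, which belong to different sets, stood far apart in miR-206-3p. Dnmt2-/- HFD 1 had 111 times the level of Dnmt2-/- HFD 2 (interval 58.3 to 244), whereas the Dnmt2+/+ HFD libraries, both in the base-26 set, had a ratio of 0.99 (interval 0.888 to 1.1). The Dnmt2+/+ ND libraries, of different sets, had 3 and 2 reads and a ratio of 1.08 (interval 0.123 to 12.9). Where both diets occur in 1 set, in the libraries with neither substitution, the HFD library had 0.6764 CPM and the ND library 0.1465 CPM, on 9 and 2 reads, and these also differ in genotype. Among detected arms of its library miR-206-3p ranked 35 to 38 by level in the base-26 libraries and 151 to 291 in the others.

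**Figure D1:**
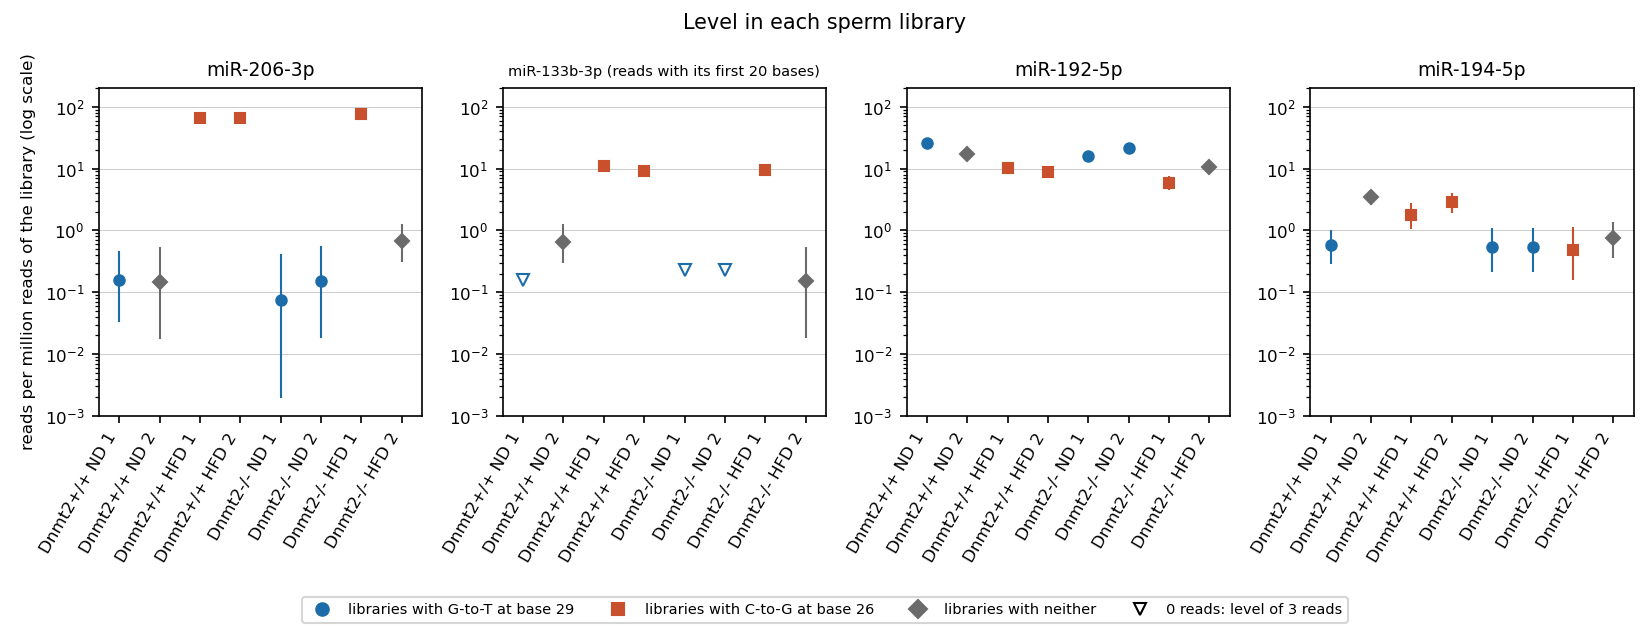
Level of miR-206-3p, of reads with the first 20 bases of miR-133b-3p, of miR-192-5p and of miR-194-5p in each of the 8 sperm libraries, in CPM on a log axis; bars are exact 95% intervals and open triangles mark 0 reads, drawn at the level of 3 reads. miR-206-3p lies between 64.68 and 75.3 CPM in the 3 libraries with C-to-G at base 26 and at most at 0.6764 CPM in the other 5, while miR-192-5p runs from 5.919 to 26.22 CPM.

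miR-192-5p was present in every library and had the opposite order. The Dnmt2+/+ ND libraries had 499 and 232 reads (26.22 and 17 CPM) and the Dnmt2-/- ND libraries 207 and 284 (15.7 and 21.6 CPM). The Dnmt2+/+ HFD libraries had 104 and 90 reads (10.1 and 8.854 CPM) and the Dnmt2-/- HFD libraries 61 and 142 (5.919 and 10.67 CPM). Every ND library therefore lay above every HFD library, and the HFD library with neither substitution was the highest of its diet. The base-29 libraries pooled had 2.63 times the level of the base-26 libraries (interval 2.29 to 3.03). The ratio between the replicates Dnmt2-/- HFD 2 and Dnmt2-/- HFD 1, of different sets, was 1.8 (interval 1.33 to 2.48), and that between Dnmt2+/+ ND 1 and ND 2 was 1.54 (interval 1.32 to 1.81).

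Of the 187 arms tested, 27 (14.4%) had no overlap between the 4 libraries of each diet. HFD was the higher diet for 26 of them (13.9%), miR-206-3p included, and the lower for 1 (0.535%), miR-192-5p itself. The share of microRNAs in a library moves these counts. Per 1000000 microRNA reads, HFD was above ND without overlap for 10 arms (5.35%) and below it for 8 (4.28%), with miR-206-3p and miR-192-5p each on the same side as before. On that scale miR-206-3p had 922.4 to 1273 in the base-26 libraries and 5.716 to 25.95 in the others, and miR-192-5p had 808.5 to 1621 on ND and 100.1 to 409.4 on HFD. The diet contrast was known when the members were chosen, so these values are a description.

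miR-194-5p was low everywhere and followed neither of the other members. It had 11 and 47 reads in the Dnmt2+/+ ND libraries (0.578 and 3.443 CPM), 18 and 29 in the Dnmt2+/+ HFD libraries (1.748 and 2.853 CPM), 7 and 7 in the Dnmt2-/- ND libraries (0.531 and 0.5323 CPM), and 5 and 10 in the Dnmt2-/- HFD libraries (0.4852 and 0.7516 CPM). The diets overlapped. Its 2 replicates in Dnmt2+/+ ND, of different sets, differed 5.96-fold (interval 3.05 to 12.7). Over the 8 libraries, on log2(CPM + 1), Pearson's r was -0.83 between miR-206-3p and miR-192-5p, 0.27 between miR-206-3p and miR-194-5p and -0.14 between miR-192-5p and miR-194-5p; these 8 points share the 3 sets.

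Ratios within a library do not depend on its depth. Reads of miR-206-3p per read of miR-192-5p numbered 6.404 and 7.378 in Dnmt2+/+ HFD and 12.72 in Dnmt2-/- HFD 1. The ratio was 0.006012 and 0.008621 in Dnmt2+/+ ND, 0.004831 and 0.007042 in Dnmt2-/- ND, and 0.06338 in Dnmt2-/- HFD 2. The muscle arm thus outnumbered the liver arm in the 3 base-26 libraries and was the minor one in the other 5. Although Mir194-2 and Mir192 neighbour each other, reads of miR-194-5p per read of miR-192-5p varied from 0.02204 in Dnmt2+/+ ND 1 to 0.3222 in Dnmt2+/+ HFD 2. The base-29 libraries had 0.02204, 0.03382 and 0.02465, below each of the other 5, whose ratios were 0.2026 in Dnmt2+/+ ND 2, 0.1731 and 0.3222 in Dnmt2+/+ HFD, and 0.08197 and 0.07042 in Dnmt2-/- HFD.

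**Figure D2:**
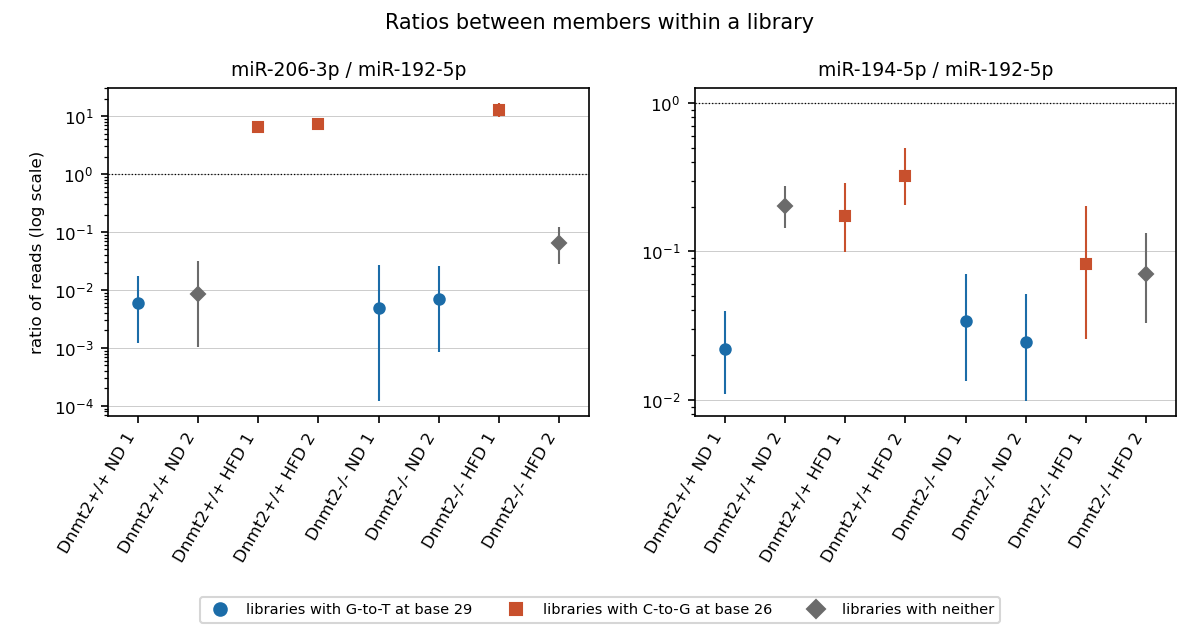
Ratio of miR-206-3p to miR-192-5p reads (left) and of miR-194-5p to miR-192-5p reads (right) in each library, on log axes, with exact 95% intervals; the dotted line is a ratio of 1. The left ratio is above 1 in the 3 libraries with C-to-G at base 26, from 6.404 to 12.72, and at most 0.06338 in the other 5.

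No member passed the test between the genotypes, and for each member their levels overlapped. In an edgeR quasi-likelihood fit over 187 arms, with Benjamini-Hochberg adjustment over all of them, 0 arms were called between Dnmt2-/- and Dnmt2+/+ on ND (percent called 0; 26 arms had an unadjusted p under 0.05) and 0 on HFD (percent called 0; 0 arms had an unadjusted p under 0.05). DESeq2 called 0 arms in each as well. No arm had 4 Dnmt2-/- libraries all above or all below the 4 Dnmt2+/+ libraries. The log2 fold change of miR-206-3p, Dnmt2-/- over Dnmt2+/+, was -0.39 ± 1.89 (SE) on ND (edgeR adjusted p = 0.8642) and -0.78 ± 1.42 on HFD (adjusted p = 0.9714), with 95% intervals of -4.72 to 3.94 and -4.02 to 2.47. Within the base-26 set the Dnmt2-/- library had 75.3 CPM and the Dnmt2+/+ libraries 64.68 and 65.32, so the negative value on HFD rests on Dnmt2-/- HFD 2: without it the log2 fold change was 0.21 ± 0.83 (edgeR adjusted p = 1), and without Dnmt2-/- HFD 1 it was -6.57.

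For miR-192-5p the genotype difference was -0.21 ± 0.70 on ND (edgeR adjusted p = 0.7944, interval -1.82 to 1.39) and -0.19 ± 0.71 on HFD (adjusted p = 0.9714, interval -1.80 to 1.42). Its sign turned under other scalings: with trimmed-mean (TMM) factors, the difference was 0.70 on ND and 0.75 on HFD. All arms together moved too, with a median log2 fold change of -1.65 on ND and -0.51 on HFD that became 0.02 and 0.09 with those factors. For miR-194-5p the difference was -1.89 ± 1.11 on ND (edgeR adjusted p = 0.2704) and -1.87 ± 1.12 on HFD (adjusted p = 0.9714). The Dnmt2-/- libraries ranged from 0.4852 to 0.7516 CPM and the Dnmt2+/+ libraries from 0.578 to 3.443. In CPM, Dnmt2+/+ was the higher genotype within each set, at 0.578 against 0.531 and 0.5323 in the base-29 libraries, 1.748 and 2.853 against 0.4852 in the base-26 libraries, and 3.443 against 0.7516 in the 2 others. The base-29 values rest on 11 against 7 and 7 reads. Per 1000000 microRNA reads their order was reversed, at 20.96 against 49.26 and 39.96. On that scale the other sets kept theirs, at 24.93 and 53.58 against 8.202 in the base-26 libraries and 163.8 against 28.83 in the rest. Without Dnmt2+/+ ND 1, the difference on ND was -2.67 ± 0.80 (edgeR adjusted p = 0.03297); that fit called 84 of 217 arms, and it sets 1 library with neither substitution against 2 base-29 libraries. Without Dnmt2+/+ ND 2, which leaves base-29 libraries on both sides, the difference was -0.12.

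The diet values of the same fit are given as a description. HFD over ND, the log2 fold change of miR-206-3p was 8.65 ± 2.02 (SE) in Dnmt2+/+ and 8.26 ± 2.03 in Dnmt2-/- sperm, that of miR-192-5p was -1.19 ± 0.71 and -1.17 ± 0.71, and that of miR-194-5p was 0.20 ± 1.06 and 0.22 ± 1.12. The fit called 1 of 187 arms in each genotype, 0.535%, and it was let-7f-5p both times; it called 0 of the 3 detected members. DESeq2 called 21 arms in Dnmt2+/+ and 3 in Dnmt2-/- sperm, miR-206-3p and miR-192-5p among them in both. Its log2 fold changes of miR-206-3p were 7.37 and 6.12, and those of miR-192-5p were -2.89 and -2.87. The members were chosen with this contrast known, and diet largely follows the sets. Calls of the members by either method are therefore no test of diet. The median of all arms was 0.61 in Dnmt2+/+ and 2.05 in Dnmt2-/- sperm, and -0.19 and -0.08 with TMM factors. With the read-error set as a term in the edgeR model, the diet value of miR-206-3p was 1.92 ± 0.80 in Dnmt2+/+ and 2.57 ± 1.08 in Dnmt2-/- sperm. That of miR-192-5p was 0.01 ± 0.57 and -0.18 ± 0.58. The fit with this term called 0 arms in either genotype (33 and 55 had an unadjusted p under 0.05). Its base-26 step comes only from the Dnmt2-/- HFD pair, and its base-29 step only from the Dnmt2+/+ ND pair. It therefore assumes that the sets act alike in both genotypes. For miR-206-3p these steps rest on 776 and 9 reads in the first pair and 3 and 2 in the second. Without Dnmt2-/- HFD 1, the base-26 library of its group, the diet value of miR-206-3p in Dnmt2-/- sperm was 2.48 ± 1.01. For the interaction of diet and genotype, 0 arms were called by edgeR (percent called 0; 2 arms had an unadjusted p under 0.05) and 0 by DESeq2. The interaction of miR-206-3p was -0.38 (interval -6.52 to 5.75) and that of miR-192-5p 0.02 (interval -2.26 to 2.31; edgeR adjusted p = 0.9378 and 0.9938).

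The forms of the miR-206-3p reads differed between the sets as well as their number. The mature arm ends in G at base 22. In the base-26 libraries base 22 was A in 1641 of 1790 reads that reached it (substitution G22A, 91.68%, and 89.44% to 93.1% by library), T in 55 (G22T) and C in 11 (G22C). The hairpin printed above has no A at that base, so these reads are not encoded by it. In the base-29 libraries 0 of 4 such reads carried G22A and in the 2 others 0 of 7, with G as in the arm in 4 and 6 of them. These few reads limit the comparison: the 5 reads of Dnmt2-/- HFD 2 allow a share of G22A up to 52.18%.

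Reads found whole within the Mir206 hairpin made up 370 of 2106 (17.57%) in the base-26 libraries, 6 of 6 in the base-29 libraries and 10 of 11 in the 2 others. The exact 22-base arm was 3.229% of the reads in the base-26 libraries. A changed last base was less common for most other arms of the same libraries. Among 130 arms with at least 50 reads in the base-26 libraries, the median share of reads with another last base, given that the preceding bases matched, was 12.66%; miR-206-3p had 95.95%, ranked the fourth from the top, and 11 arms exceeded 50%. Above it were the reads with the first 20 bases of miR-133b-3p (99.66%), which are taken up below and may not be that arm, miR-378c (99.53%) and miR-5100 (97.06%). Reads with exactly 1 substitution within the first 20 bases of miR-206-3p numbered 563 in the base-26 libraries, 3 in the base-29 libraries and 22 in the others. Of the 563, 287 carried G11A and 114 carried G17A. In Dnmt2-/- HFD 2, 11 of the 15 carried G17T, which had 0 reads elsewhere. Which molecules gave these substituted reads was not tested.

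**Figure D3:**
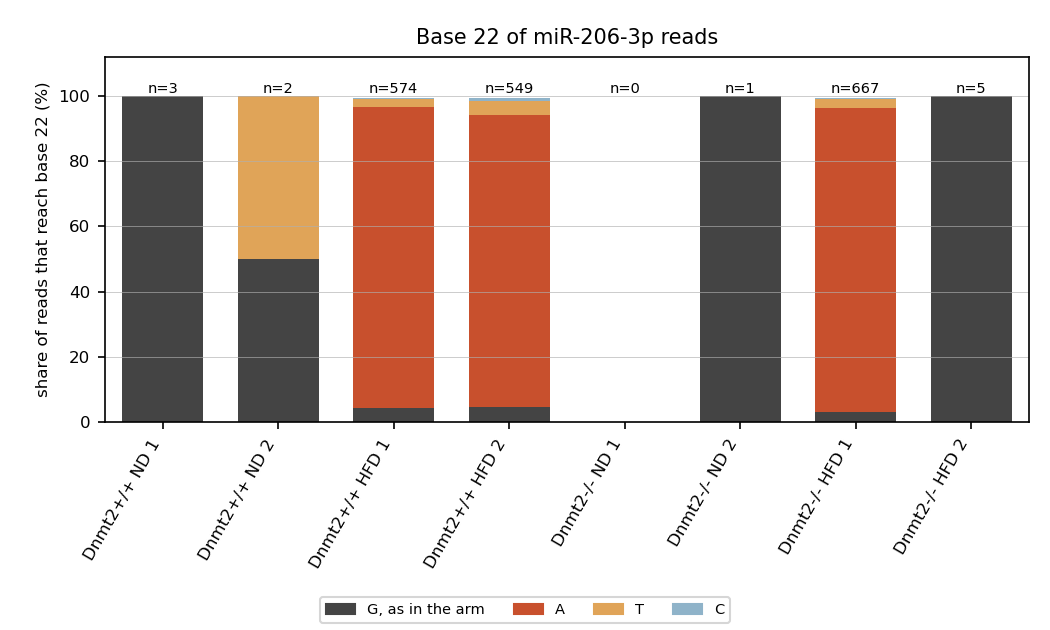
Base 22 of the miR-206-3p reads that reach it, as a share of those reads in each library, with their number above each bar; the small gap to 100% is reads that also differ at base 21. A replaces the G of the arm in 89.44% to 93.1% of the reads in the 3 libraries with 549 or more of them, and the other libraries have 0 to 5 such reads.

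For miR-192-5p the ends of the reads were more alike between sets. G23T, a T in place of the G that the hairpin has 2 bases past the arm, was carried by 83.1% to 97.44% of the reads that reached base 23 with the hairpin's sequence up to base 22. The last base of the arm itself was replaced in 6.78% of reads in the base-29, 12.55% in the base-26 and 7.716% in the other libraries. The medians over arms in the same libraries were 4.223%, 12.66% and 7.051%. Reads of 23 nt made up 55.86% in the base-29 libraries, against 34.12% in the base-26 libraries and 31.02% in the 2 others. By library the 3 base-29 values were 56.11%, 58.94% and 53.17%; all lay above the other 5, which ran from 22.22% in Dnmt2+/+ HFD 2 to 43.27% in Dnmt2+/+ HFD 1. Reads that began 1 base inside the arm were 30.72%, 27.14% and 19.74% of all miR-192-5p reads, in the same order of sets. Such a start shifts the seed by 1 base.

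**Figure D4:**
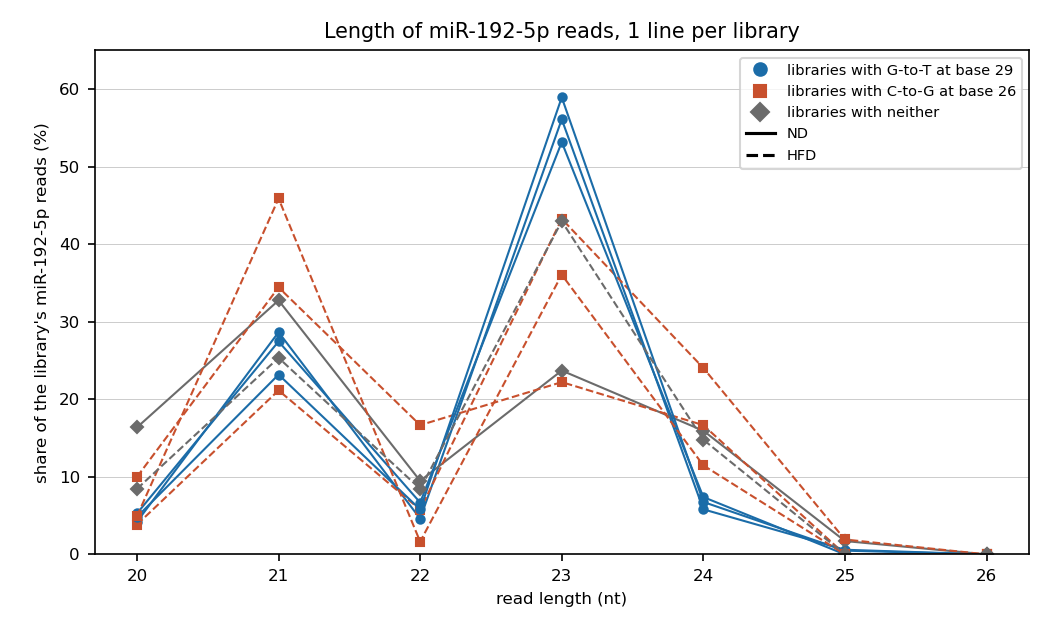
Length of miR-192-5p reads, as a share of the miR-192-5p reads of each library, with 1 line per library; solid lines are ND, dashed lines HFD, and colours mark the sets. The 3 libraries with G-to-T at base 29 peak at 23 nt with 53.17% to 58.94%, and the other 5 hold 22.22% to 43.27% there.

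Bases past the arm differ between the hairpins of miR-194-5p, so longer reads can match only 1 of them. In the base-29 libraries 5 of 25 reads ran on into sequence that only Mir194-1 has and 0 into that of Mir194-2. In the base-26 libraries these numbers were 0 and 5 of 52, and in the 2 others 0 and 4 of 57. Of the 5 reads that matched Mir194-1, 4 were in Dnmt2+/+ ND 1 and 1 in Dnmt2-/- ND 1. An A added to the end of the arm without a template would also match Mir194-2, which continues with A, and an added C Mir194-1. Whether the sets differ in the hairpin used was not tested. Of the passenger arms, miR-206-5p, miR-192-3p and miR-194-1-3p had 0 reads in all libraries. Reads of miR-194-2-3p numbered 5, 3 and 6 in the base-29 libraries, 3 in Dnmt2-/- HFD 2 and 0 in the remaining 4. Those 5, 3 and 6 stand beside 11, 7 and 7 reads of miR-194-5p. They come from Mir194-2, although 0 miR-194-5p reads ran on into Mir194-2 in these libraries.

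Other arms of the muscle and liver lists were read against the members. The muscle list held 8 arms, of which 5 had a sequence and 3 were detected. Reads with the first 20 bases of miR-133b-3p, a myomiR whose hairpin shares Lincmd1 with Mir206, numbered 113, 93 and 98 in the base-26 libraries (9.149 to 10.97 CPM), 9 in Dnmt2+/+ ND 2, 2 in Dnmt2-/- HFD 2 and 0 in all base-29 libraries. Against a floor of 3 reads over the base-29 set, their level in the base-26 libraries was 149-fold higher. With the 0 reads as counted, the lower 95% limit of the fold was 121. Only 1 of these 304 base-26 reads held the whole miR-133b-3p arm, and A22G was carried by 294 of the 301 that reached base 22 (97.67%) and by 10 of 10 in the libraries with neither substitution. An arm with the same first 20 bases cannot be told apart by this match, so they are given as reads with its first 20 bases and not as that arm. miR-499-5p, from a myosin heavy chain gene of slow and cardiac muscle, had 16, 2 and 5 reads in the base-26 libraries and 0 to 7 in the others. miR-208a-3p and miR-208b-3p, from cardiac and slow myosin genes, had 0 reads in every library. The largest upper limit of their exact 95% intervals is 0.3629 CPM, in Dnmt2+/+ HFD 2, where 3 reads would be 0.2951 CPM.

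The liver list held 6 arms, of which 4 had a sequence and 3 were detected. miR-802-5p, a liver and pancreas microRNA, had 0 reads in every library. miR-215-5p had 1 to 6 reads per library, between 0.07516 and 0.4396 CPM, so miR-192-5p made up most of the list's sum of 6.598 to 26.9 CPM. Reads of miR-215-5p with the substitution T12A numbered 127, 69 and 100 in the base-29 libraries, where miR-192-5p was highest, 1 in Dnmt2+/+ ND 2 and 0 in the other 4. Whether these reads come from mouse RNA was not tested, and the match to miR-192-5p does not show the organism of a read, so a shared source of both in the base-29 libraries was not tested either.

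The patterns most like those of the members were sought among 102 other arms with a mean of at least 5 CPM, by Pearson's r on log2(CPM + 1) over the 8 libraries, which share the sets. Nearest to miR-206-3p were miR-574-5p (r = 0.974), let-7e-5p (0.947), let-7g-5p (0.940), miR-98-5p (0.936) and let-7b-5p (0.936). Nearest to miR-192-5p were miR-140-3p (0.776), miR-881-3p (0.754), miR-148a-3p (0.627), miR-871-3p (0.510) and the joined miR-465a-3p, miR-465b-3p and miR-465c-3p (0.357). miR-574-5p had 17.61 to 25.54 CPM in the base-26 libraries and 1.062 to 3.521 in the others, a smaller step than that of miR-206-3p. miR-881-3p, an X-linked testis microRNA, had 270.0 to 1398 CPM over all libraries.

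Markers of other cell types moved between the same sets. The 7 epithelial arms (the miR-200 family, miR-203 and miR-205) summed to 193.6 to 418.4 CPM in the base-29 libraries, 3070 to 4019 in the base-26 libraries and 613.5 to 1943 in the 2 others. The 5 detected blood cell arms summed to 2.995 to 10.01, 57.94 to 96.44 and 34.87 to 38.03 CPM in the same order, with the red cell marker miR-451a at 0.3035 to 0.6844, 0.8741 to 2.066 and 1.503 to 2.198 and miR-144-3p at 0 in every library. The endothelial arm miR-126a-3p had 1.366 to 2.807, 11.71 to 19.21 and 7.816 to 14.21 CPM. Per 1000000 reads of the library, these 3 lists were thus lowest in the base-29 libraries and reached their highest value in a base-26 library. The base-26 and the remaining libraries overlapped for miR-126a-3p alone. Most of the blood sum was miR-146a-5p, at 2.049 to 9.028, 49.29 to 81.68 and 28.72 to 31.57 CPM. By contrast, miR-223-3p and miR-451a were highest in a library with neither substitution, at 1.465 and 2.198 CPM. The muscle list had the same order, at 0.07586 to 0.2281, 74.67 to 85.29 and 0.9019 to 1.319 CPM. All these sums depend on the share of microRNAs in a library. That share was 1.078% to 2.758% in the base-29 libraries, 5.325% to 7.013% in the base-26 libraries and 2.102% and 2.607% in the others. How far the steps between sets follow that share was not tested.

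The brain list (3 of 6 arms detected) had 8.724 to 18.18, 43.38 to 53.9 and 37.2 to 52.09 CPM in that order, and the pancreas list at most 0.1465 CPM in any library. The smooth muscle list (miR-143-3p and miR-145a-5p) had no arm with a sequence here. The male germline list was read because the labels name sperm, but without a reference level it cannot check that label. Its 7 detected arms summed to 345.9 to 1553 CPM in the base-29, 364.7 to 737.7 in the base-26 and 705.2 to 834.6 in the other libraries. Most of the sum was miR-881-3p, with miR-34b-5p at 0 to 0.2951 CPM. In the base-26 libraries the epithelial list, at 3070 to 4019 CPM, was the higher one, and in the other sets the ranges of these 2 lists overlapped. The list's miR-34c-5p had no sequence here and was not counted. Reads of miR-34b-5p with A11G numbered 902, 4766 and 4004 in the same order of sets, against 1, 6 and 5 of the unchanged arm. Their source was not tested, so the level of miR-34b-5p does not describe the miR-34 family. In the 2 libraries with neither substitution, blood and endothelial arms reached 34.87 CPM or more and 7.816 CPM or more while the muscle list stayed at 1.319 CPM or less, so the lists did not rise in one ratio. The part of other cells in the levels of miR-206-3p and miR-192-5p was not tested.

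**Figure D5:**
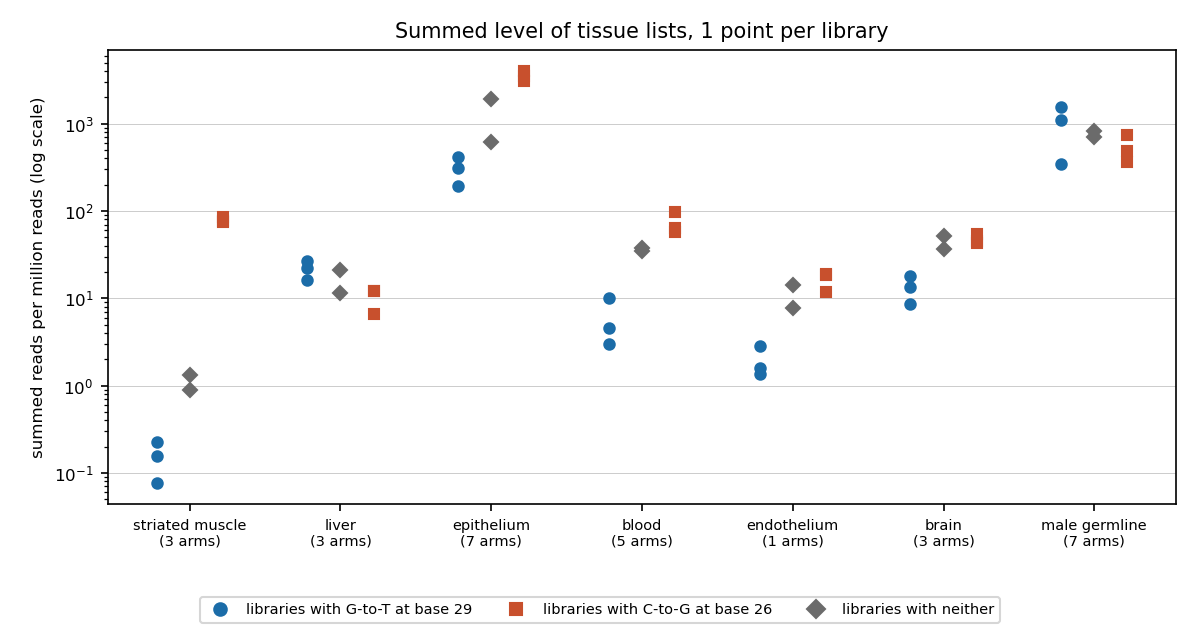
Summed level of the detected arms of 7 tissue lists, in CPM on a log axis, with 1 point per library and colours for the sets. The muscle list runs from 0.07586 CPM to 85.29 CPM, the widest span of the 7, and the liver list from 6.598 to 26.9 CPM with its highest points in the libraries with G-to-T at base 29.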

How the data were processed

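The values of the sperm libraries are counts as deposited by the authors, who collapsed reads to distinct sequences and listed each with its length and number of reads; the files have no header, and this was read from their values. The trimming of adapters and the aligner are not given in the sources used here. Per the labels' protocols, RNA was extracted with Trizol and the TruSeq small RNA kit was used. The submitters' processing notes name mm10 and GRCm38 as builds.

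From these counts, reads of 20 to 26 nt were assigned to 1621 features, made of the 1627 RefSeq mouse arms of at least 20 nt, by their first 20 bases; arms with the same 20 bases were joined. Tests used edgeR 4.0.16 (glmQLFit, glmQLFTest) in R 4.3.3 on the 187 features kept by filterByExpr, over all 8 sperm libraries, with the total reads as library size and no covariate; a call needs an adjusted p under 0.05. DESeq2 1.42.0 was an alternative. Named are the members, the other arms of their hairpins and lists, and the 5 arms most like a member. Members and lists were chosen with earlier results of these data known. Replicate numbers did not pair the libraries: the deviations of same-numbered libraries had correlations from -0.559 to 0.578 over 6 pairs of groups. Averaged over arms, no pair of replicates agreed within sampling noise, with a chi-square per arm from 120.2 in Dnmt2-/- ND to 1279 in Dnmt2-/- HFD. Single arms could agree, as miR-206-3p did in Dnmt2+/+ HFD with a ratio of 0.99 (interval 0.888 to 1.1). Alternatives changed the scaling, the filter, the read match, the model and the libraries used.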

Additional observations from a re-analysis of the deposited data

Results flagged for a closer look

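Within the 4 libraries of a diet, a library stood apart where its gap to the nearest other, as a part of the range, exceeded Dixon's 95% critical value, which chance passes in about 1 of 20 such groups. On HFD, miR-206-3p in Dnmt2-/- HFD 2 was at 0.6764 CPM, with a gap of 0.858 of the range below the other 3. This is the HFD library with neither substitution. On ND, miR-206-3p in Dnmt2-/- ND 1 was at 0.07586 CPM, with a gap of 0.864, on a single read. miR-194-5p in Dnmt2+/+ ND 2 was at 3.443 CPM, with a gap of 0.984, above the other 3 ND libraries; this is the ND library with neither substitution.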

How the results depend on the processing

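Of 204 recomputed member fold changes, 166 kept their direction and their side of the threshold, 24 changed sign and 14 passed it only when recomputed. A group left with 1 library is assumed to vary like the others. The number of arms called for diet in Dnmt2+/+ sperm, 1, became 0 with TMM factors, 3 with the sum of microRNA reads as library size, 13 with no filter, 6 with up to 1 mismatch, 0 with the read-error set as a term, 21 with DESeq2, and 0 to 72 without 1 library (72 without Dnmt2+/+ ND 2). For diet in Dnmt2-/- sperm, 1 became 0, 0, 20, 7, 0 and 3 under the same settings, and 0 to 68 without 1 library (68 without either Dnmt2+/+ ND library). For genotype on ND it was 0 to 84 without 1 library (84 without Dnmt2+/+ ND 1) and 0 under every other setting; for genotype on HFD and the interaction it was 0 under all settings. The cause was not tested. With the replicate number as a block the count was 1 in each diet comparison, as without it, and 0 in the others. The block changed no call, and the log2 fold change of miR-206-3p by diet was 8.80 and 7.60.

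Some log2 fold changes changed sign. By diet in Dnmt2+/+ sperm, miR-192-5p was 0.007 with the set term, and miR-194-5p was -0.57 with TMM, -1.22 with microRNA reads, -0.53 with DESeq2, and -0.58 to 1.97 without 1 library. By diet in Dnmt2-/- sperm, miR-194-5p was -1.61, -1.29 and -1.53 under those 3, -2.06 with the set term and -0.13 to 0.49 without 1 library. By genotype on ND, miR-206-3p was 0.89, 0.56 and 0.68 and miR-192-5p 0.70, 0.81 and 0.56 under the 3, and miR-192-5p was -0.49 to 0.13 without 1 library (0.13 without Dnmt2+/+ ND 1). By genotype on HFD, miR-206-3p was 0.21 with the set term and -6.57 to 0.21 without 1 library (-6.57 without Dnmt2-/- HFD 1, 0.21 without Dnmt2-/- HFD 2), and miR-192-5p was 0.75, 0.71 and 0.58 under the 3 and -0.68 to 0.17 without 1 library. With up to 1 mismatch, 5 of 24 member levels left their 95% interval, all of miR-206-3p; 18 bases or reads of 20 to 24 nt moved 0 of 24. Depth limits miR-206-3p outside the base-26 libraries, where it rests on 1 to 9 reads.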

Other observations

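A pair of substituted arms were nearly limited to 1 set of libraries; both were noticed after their values were seen. Reads with miR-215-5p carrying T12A numbered 127 in Dnmt2+/+ ND 1, 69 and 100 in the Dnmt2-/- ND libraries, 1 in Dnmt2+/+ ND 2 and 0 in the other 4, whereas the unchanged arm had 1 to 6 reads per library. Base 12 is also one of the 3 bases at which miR-192-5p differs from miR-215-5p, but these reads keep the other 2 bases of miR-215-5p. Reads with miR-155-5p carrying T12C numbered 948 in Dnmt2+/+ ND 2, 712 in Dnmt2-/- HFD 2, 4 in Dnmt2+/+ ND 1 and 0 in the other 5. In a scan of all arms for substitutions with at least 50 reads and more reads than the arm itself, 8 were found in the base-29, 5 in the base-26 and 6 in the other libraries, of which 1, 0 and 1 had at most 5 reads outside their set. Their source, mouse or other, was not tested.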
